A study of Mus musculus with 8 samples.

Results

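A set of 8 genes of the interferon response and of class I antigen presentation were followed in single cells of mouse retina, from libraries labelled as controls (WT) and as ABCA1 knockout (KO). They were chosen by name, 4 as interferon-induced genes (Ifit3, Ifit3b, Ifitm3 and Ifi27) and 4 as genes of class I presentation (H2-D1, B2m, Tapbp and Psmb9). All 8 were listed with values, of 1802 genes in all, by the authors' deposited table, which sets all KO cells against all WT cells. Droplet libraries of papain-dissociated retina, which read transcripts from the 3′ end, comprised 3 with the genotype Control and 5 with the genotype ABCA1KO. Age, sex, strain, the deleted part of the gene, the cells that lost it and the number of animals are not given in the labels. ABCA1 exports cholesterol and phospholipid from cells, and the series title ties its loss in astrocytes to disease of the optic nerve.

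Interferons are secreted when a cell senses foreign or misplaced nucleic acid, and their receptors signal through JAK kinases and STAT factors to promoters that carry an interferon-stimulated response element. The induced proteins block viral entry and translation. Class I presentation starts with the proteasome, whose peptides are carried into the endoplasmic reticulum and loaded, with the help of tapasin, onto a heavy chain paired with beta-2-microglobulin. Interferon also induces much of this second machinery. Neurons of the healthy retina show little class I protein, and microglia, endothelium and glia are its usual sources.

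The table gives each gene a log difference, which is the natural-log mean of KO cells minus that of WT cells, and the share of cells of each genotype with a value above 0. The values appear to be batch-integrated, so a log difference does not give a fold of expression, nor a value above 0 a detected transcript. A gene is called where the authors' adjusted p was under 0.05. The unit of replication behind that p is not stated. From 8 libraries, 183 genes had a raw p listed as 0, so cells rather than libraries appear to be the unit. Values per library, their spread and the depth were not analysed here, so no difference below was set against the spread between libraries. Because cells of all types are pooled, fewer cells of a type and less RNA per cell cannot be told apart.

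All 8 genes were called, as were 93.2% of all genes in the authors' deposited table, so a call by itself sets none of them apart. Of the 4 interferon-induced genes 3 were called lower in KO and 1 higher, and of the 4 class I genes 3 were called higher and 1 lower, which turned to 1 higher and 3 lower when read against the median gene instead of 0. Over all genes of the authors' deposited table, calls were higher for 69.1% and lower for 24.1%. The differences were small: 6 of the 8 lay within 0.015 of 0, as did 49.3% of all genes. In each of the 8 a larger share of KO than of WT cells was above 0, which also held for 97.9% of all genes.

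The targeted gene, Abca1, was listed at 0.0294 by the authors' deposited table and was above 0 in 30.5% of WT and 48.7% of KO cells, so these values do not check the genotype labels, and KO means cells of libraries labelled KO. Of 16 rod markers 13 were listed, but Sag, the rod arrestin gene, was above 0 in 98.7% of WT and 98.8% of KO cells of all types in the authors' deposited table, so these shares do not check the tissue label either.

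Ifit3 and Ifit3b are neighbouring copies of one gene, and Ifitm3 and B2m share a short sequence motif with them. The members lie on 5 chromosomes in the GENCODE M21 annotation of GRCm38. Ifit3 spans 34583531 to 34588731 of chromosome 19, and Ifit3b follows on the same strand from 34607970 to 34613401, with 19.2 kb between them. Ifitm3 lies on chromosome 7 (141009586 to 141010770, minus strand), Ifi27 on chromosome 12 (103434211 to 103440239) and B2m on chromosome 2 (122147686 to 122153083). The other class I genes are all in the major histocompatibility complex on chromosome 17: Tapbp (33915899 to 33929292), Psmb9 (34181987 to 34187764, minus strand) and H2-D1 (35262730 to 35267499).

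Promoter windows from 250 bases before to 50 after the start of the RefSeq gene were read from RefSeq (GRCm38.p6) for 7 of the 8 genes, with none for Ifi27. The RefSeq start lay within 26 bases of the GENCODE start for Ifit3, Ifit3b, Ifitm3 and B2m, but 364 bases downstream of it for H2-D1, 434 for Psmb9 and 3579 for Tapbp, whose windows do not hold the GENCODE start. Both strands were searched for the core of the interferon-stimulated response element, GAAANNGAAA, which was present in 3.44% of 32851 promoter windows of the genome. It occurred 2 times each in Ifit3, Ifit3b and Ifitm3 and 1 time in B2m. The windows of H2-D1, Tapbp and Psmb9 had no match to these letters. Those 3 windows miss the GENCODE start, and the bases upstream of that start were not searched. Variant forms of the element were not looked for in any window, so these 3 genes, H2-D1 among them, were not shown to lack it. The stretches that hold these matches are shown. The exact letters were found in all 3 interferon-induced members with a window and in 1 of the 4 class I members. The H2-D1 stretch has no exact match but holds tttcacttc, which is the Ifit3 match TTTCACTTTC with 1 t fewer. The split by exact letters therefore does not set H2-D1 apart as a gene without the element. Whether these letters of H2-D1 act as the element was not tested. Capitals mark the matches to the element, and in H2-D1 2 overlapping matches to the consensus of NF-κB, an inflammatory transcription factor. The coordinates are chr19:34583353-34583436 for Ifit3, chr19:34607749-34607832 for Ifit3b, chr7:141010696-141010762 (minus strand) for Ifitm3, chr2:122147528-122147577 for B2m and chr17:35262903-35262953 for H2-D1.
Ifit3: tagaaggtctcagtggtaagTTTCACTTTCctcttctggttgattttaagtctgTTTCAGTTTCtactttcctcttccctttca
Ifit3b: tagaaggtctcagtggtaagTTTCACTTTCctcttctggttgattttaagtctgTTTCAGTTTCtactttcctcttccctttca
Ifitm3: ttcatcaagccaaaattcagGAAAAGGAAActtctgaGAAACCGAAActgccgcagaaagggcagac
B2m: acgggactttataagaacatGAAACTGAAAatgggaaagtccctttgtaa
H2-D1: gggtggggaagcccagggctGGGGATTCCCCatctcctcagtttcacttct

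The stretches of Ifit3 and Ifit3b are identical over all 84 bases, and their whole promoter windows matched at 258 of 260 aligned bases (99.2%). The NF-κB consensus, found in 8.46% of all promoter windows, also matched Ifitm3 and B2m. The palindromic gamma-interferon activated site, TTCNNNGAA, was present in 8.30% of windows and matched Ifitm3, where it overlaps the second response element. Among the 1360 listed genes with a promoter window, 58 carried the response element (4.26%). Of these 58 genes the authors' deposited table called 33 higher and 18 lower, or 31.0% lower, against 22.5% lower among the 1302 genes without it. Their median log difference was 0.00692 in the authors' deposited table, against 0.0106 without the element. The 58 include the 4 members with a match, and a match is a description of letters, not a bound site.

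Ifit3 encodes a tetratricopeptide repeat protein that works with other IFIT proteins against viral RNA. In the authors' deposited table it was above 0 in 38.1% of WT cells and 66.8% of KO cells. That gain of 28.7 percentage points ranked 143 of 1802, and yet the log difference of Ifit3 was below 0, at -0.00697 (adjusted p = 8.36e-272 in the authors' deposited table). Ifit3b stood higher in WT, above 0 in 48.3% of cells, and reached nearly the same share as Ifit3 in KO, 67.0%, in the authors' deposited table. Its gain of 18.7 points was therefore 10 points smaller than that of Ifit3, while its log difference of -0.00724 was almost equal (adjusted p = 2.25e-59 in the authors' deposited table). The pair thus differed in the share of WT cells above 0 and hardly in the rest.

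These 2 genes can share reads, so their values are uncertain as separate measurements. Their longest coding transcripts in GENCODE M21 matched at 1663 aligned bases and differed at 34 (98.0% identity). Of the 50-base windows in the last 500 bases of the Ifit3 transcript, where 3′ libraries read, 67 of 451 (14.9%) occurred unchanged in Ifit3b. Over the whole Ifit3 transcript 869 of 1696 windows did (51.2%). How reads that match both copies were counted is not given in the sources used here.

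Ifitm3 encodes a small membrane protein that holds back fusion of viruses with endosomes. It was above 0 in 47.0% of WT and 74.0% of KO cells in the authors' deposited table, a gain of 27.0 points and the highest KO share of the interferon-induced members. Its log difference of -0.0115 was the lowest of these 4 genes (adjusted p = 7.68e-268 in the authors' deposited table). Ifi27, a small hydrophobic protein of mitochondrial and nuclear membranes, ran the other way. In the authors' deposited table it was above 0 in 26.8% of WT and 39.7% of KO cells, the lowest shares of all 8 genes, and it was listed at 0.00936 (adjusted p = 4.14e-35).

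Ifit3 and Ifitm3 thus joined a call of lower in KO with a gain in share above the median of 20.8 points. By the authors' deposited table, 177 of 1802 genes had this pairing (9.82%), against 39.8% that were called higher with a gain above the median. Most genes called lower, 423 of 434 in the authors' deposited table, had a larger share above 0 in KO.

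H2-D1, a class I heavy chain that carries the peptide, had the largest difference of the 8 genes. It was above 0 in 62.4% of WT and 80.8% of KO cells in the authors' deposited table, the highest shares of the members, and its log difference was -0.0473. By absolute value it ranked 264 of 1802, while its adjusted p of 0.000166 was the weakest of the 8 in the authors' deposited table. The 38 genes with a WT share within 5 points of that of H2-D1, counting itself, had a median log difference of 0.0414, and 23.7% of them were called lower in the authors' deposited table. That comparison was chosen after the values were seen.

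B2m, the light chain shared by class I molecules, had a smaller difference, on the other side of 0. Its log difference was 0.00923 (adjusted p = 1.25e-30 in the authors' deposited table), with 36.0% of WT and 53.2% of KO cells above 0. Heavy and light chain, which form one complex, had opposite signs against 0, but B2m turned to the side of H2-D1 against the median gene (-0.000816) and within its quintile of the WT share (-0.00206). Their gains in share of 18.4 and 17.2 points were close.

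Tapbp encodes tapasin, which bridges the peptide transporter and the heavy chain and favours well-fitting peptides. It had the highest log difference of the 8 genes, 0.0320 (adjusted p = 4.67e-202 in the authors' deposited table). Its share of cells above 0 was 42.6% in WT and 70.9% in KO in the authors' deposited table, a gain of 28.3 points that nearly equals that of Ifit3. Tapbp and Ifit3 thus had almost the same gain and log differences on opposite sides of 0. Psmb9, a catalytic subunit of the immunoproteasome, moved least in share, from 41.9% of WT to 49.6% of KO cells in the authors' deposited table. That gain of 7.7 points ranked 1630 of 1802, and its log difference was 0.00602 (adjusted p = 9.19e-06 in the authors' deposited table).

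**Figure D1:**
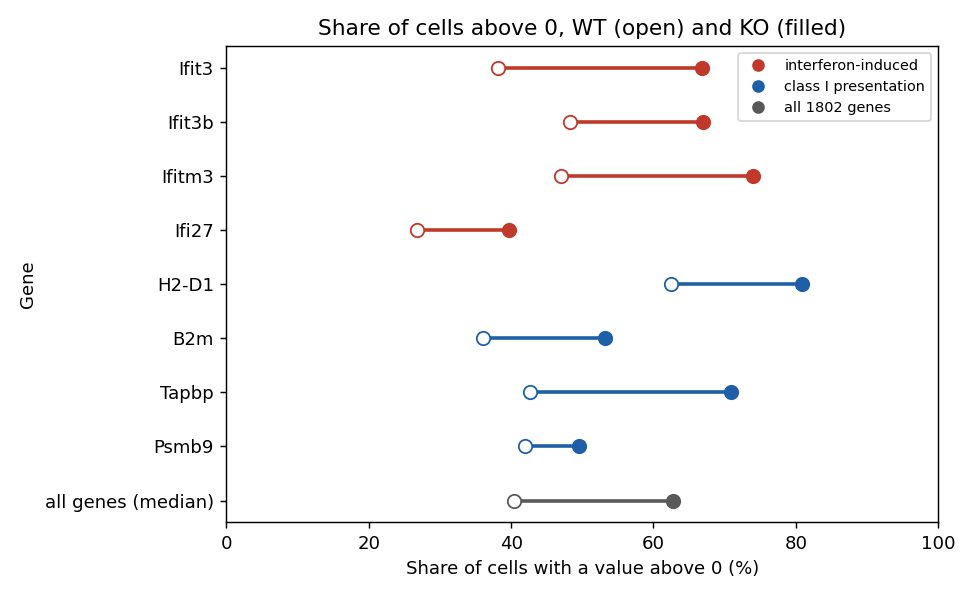
Share of cells with a value above 0 (horizontal axis, percent) for each of the 8 genes and for the median of all 1802 genes, in WT cells (open points) and KO cells (filled points), with 1 pooled value per genotype and no error. Every line runs to the right, from 7.7 points in Psmb9 to 28.7 points in Ifit3, and the median gene gains too.

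Side by side, the interferon-induced members had a median log difference of -0.00711 and the class I members one of 0.00762, both below the median of 0.010 over all genes of the authors' deposited table. The order turned round for the share of cells: the median gain was 22.85 points for the interferon-induced and 17.8 points for the class I members, against 20.8 over all genes. The 2 groups of 4 overlapped in both measures. H2-D1 lay below all of the interferon-induced genes in log difference, and Ifi27 lay above B2m and Psmb9. Since 4 genes of a table are not replicates, the difference between the groups was not tested.

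Read against the median gene of the authors' deposited table instead of 0, only Tapbp of the 8 lay above, because Ifi27, B2m and Psmb9 lie between 0 and 0.010. Ifit3, Ifit3b, Ifitm3 and H2-D1 were below on either reading. Compared within quintiles of the WT share, Ifi27 was above its quintile's median of 0.00353 and B2m and Psmb9 were below theirs, 0.0113 and 0.0133, in the authors' deposited table.

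**Figure D2:**
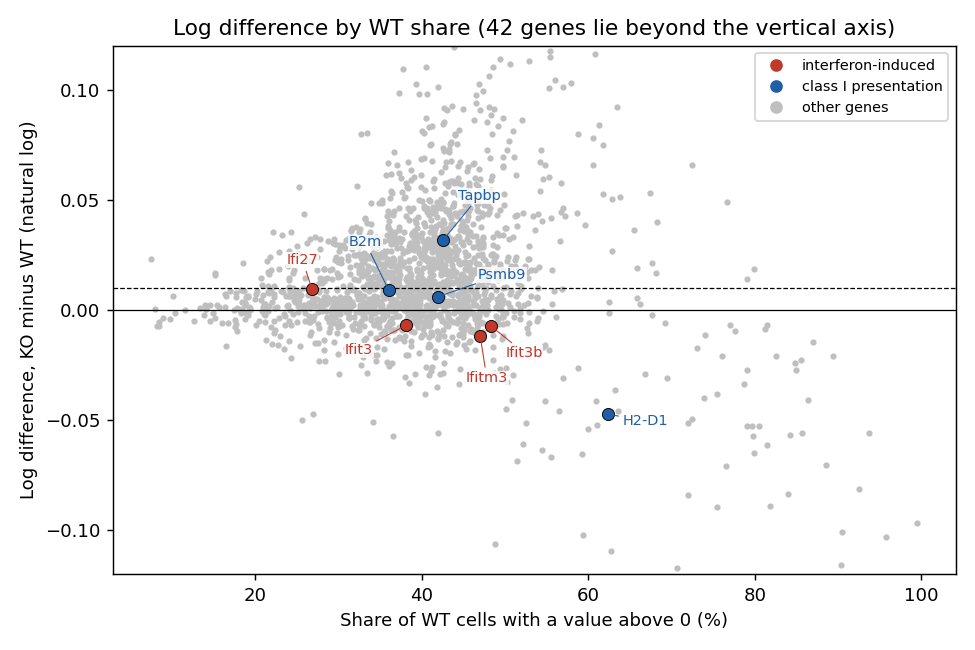
Log difference between KO and WT cells (vertical axis, natural log) against the share of WT cells above 0 (horizontal axis, percent), 1 point per gene, with 42 genes beyond the vertical axis limit of 0.12. The solid line is 0 and the dashed line the median of all genes, 0.010. Ifit3, Ifit3b, Ifitm3 and H2-D1 lie under both lines and Tapbp above both.

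Genes with nearly the same pair of shares as a member had log differences on its side of 0 in some cases and on the other side in others. The authors' deposited table called the 2 nearest to Ifit3, the genes Cox4i2 (0.00639) and Klhdc8a (0.0258), higher. Next to Ifit3b came St8sia2 (-0.0115) and Fubp1 (0.0729), and next to Ifitm3 came Aqp1 (-0.00691), a water channel gene, and Tpm3 (0.0134) in the authors' deposited table. Ifi27, itself higher, was nearest to Rassf4 (-0.00545) and Tac2 (-0.00257), both called lower in the authors' deposited table. For H2-D1 the nearest were Gnas (0.0513) and Rdh12 (0.00349), both called higher in the authors' deposited table. B2m was nearest to Unc13b (0.0404) and Phc3 (0.0339), and Tapbp to Neurod4 (0.0672) and Myo1c (0.0181) in the authors' deposited table. Psmb9 was nearest to Cldn5 (-0.0125, not called) and Grin3a (0.0207) in the authors' deposited table. Likeness here is the distance between 2 pairs of shares, up to 1.5 points, in a single comparison of pooled cells.

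Beyond the members, interferon-induced genes were called in both directions. Of 69 genes looked for 13 were listed, and the authors' deposited table called 7 of them higher, 5 lower and 1 neither. With the 4 members left out, 6 of 9 were called higher and 2 lower, where 69.1% of all genes were called higher and 24.1% lower. Of the 4 members, which were chosen with earlier results known, 3 were called lower. Among called genes outside the members, the authors' deposited table had the largest differences for Samhd1 (0.0341), which depletes nucleotides, and Psme1 (0.00856), a proteasome activator subunit. Bst2 (-0.00605), which tethers budding virus, and Oasl2 (-0.00539), of the oligoadenylate synthetase family, followed in the authors' deposited table. Of the 13 listed genes 1, Samhd1, lay above the median gene. The median of the 13 was 0.000926, against 0.010 over all genes in the authors' deposited table.

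Within gene families, some relatives differed from the members in the sign of a value and others did not. Ifit1, named after its values were seen, lies 52.1 kb from Ifit3 and was above 0 in 30.7% of WT but 20.7% of KO cells in the authors' deposited table. It was 1 of only 36 genes with a smaller share in KO, and its drop was the fourth largest of them, at -10.0 points, against a gain of 28.7 points in Ifit3. Its log difference was 0.000926 (adjusted p = 5.77e-33 in the authors' deposited table). The transcripts of Ifit1 and Ifit3 had 69.9% identity at aligned bases and shared 0 of 1696 windows of 50 bases. Of the other Ifitm genes, also named after their values were seen, Ifitm1 gained 4.3 points with a log difference of 0.00462. Ifitm2 gained 13.7 points at -0.00633, and the authors' deposited table did not call it (adjusted p = 1). Ifitm3 gained 27.0 points. Isg15, a ubiquitin-like protein and a standard readout of interferon, moved from 27.4% to 32.4% of cells above 0 and was listed at 0.00500 by the authors' deposited table.

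Upstream of these genes little was listed. Of 23 receptors and signal transducers only Ifnar2 (0.00449), a chain of the type I interferon receptor, and Socs3 (-0.00584), a feedback inhibitor of cytokine signalling, were listed in the authors' deposited table, called higher and lower. Among 18 interferon ligands and nucleic acid sensors 0 were listed. The table holds a selected set of features, so a gene that is not listed was not shown to be unchanged.

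Calls in the wider class I pathway were close to those of all genes. Of 29 genes 12 were listed, of which the authors' deposited table called 9 higher, 2 lower and 1 neither, and without the members the counts were 6, 1 and 1. Among all listed genes 69.1% were called higher, and the list's median of 0.00729 was below that of all genes. Against the median gene, or within quintiles of the WT share, 3 of the called genes were higher and 8 lower. Among its called genes other than the members, the largest differences were those of the chaperone genes Hspa5 (0.0403) and Calr (0.0253), which fold many proteins of the endoplasmic reticulum besides class I, followed by Psme1 (0.00856) and H2-T22 (0.00230), a non-classical heavy chain, in the authors' deposited table. Psme1 is also counted among the interferon-induced genes.

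By role, the other heavy chains listed were closer to 0 than H2-D1. H2-K1, the other classical heavy chain listed, had a log difference of 0.00209 and shares of 42.9% and 62.6% in WT and KO cells in the authors' deposited table. H2-T23 was listed at 0.00959 by the authors' deposited table, which did not call it (adjusted p = 0.514). Read against the median gene, H2-K1 (-0.00795), H2-T22 (-0.00774) and H2-T23 (-0.000451) lay below it, as H2-D1 did. The transcripts of H2-D1 and H2-K1 matched at 91.1% of aligned bases, with 2 of 451 windows shared in the last 500 bases of H2-D1. Next to Psmb9 on chromosome 17 lie Psmb8 (34197721 to 34201454), its partner subunit, and Tap2 (34203527 to 34216321), a chain of the peptide transporter. The authors' deposited table listed Psmb8 at 0.00155 with a gain of 15.5 points and Tap2 at -0.00171 with a gain of 26.4 points, both called. H2-K1, H2-T23, Psmb8 and Tap2 were named after their values were seen. Of 31 subunits of the constitutive proteasome 0 were listed.

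Class II presentation was listed only through its lysosomal proteases. Of 16 genes 4 were listed, and 3 were called higher and 0 lower: Ctss (0.0248), Ctsz (0.0127) and Lgmn (0.00629) in the authors' deposited table. Over all genes 69.1% were called higher. Against the median gene, or within quintiles of the WT share, 2 of the called genes were higher and 1 lower. Ctsl was not called, and Ctss is also counted among the microglial markers. The class II chains and the invariant chain gene Cd74 were not listed.

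**Figure D3:**
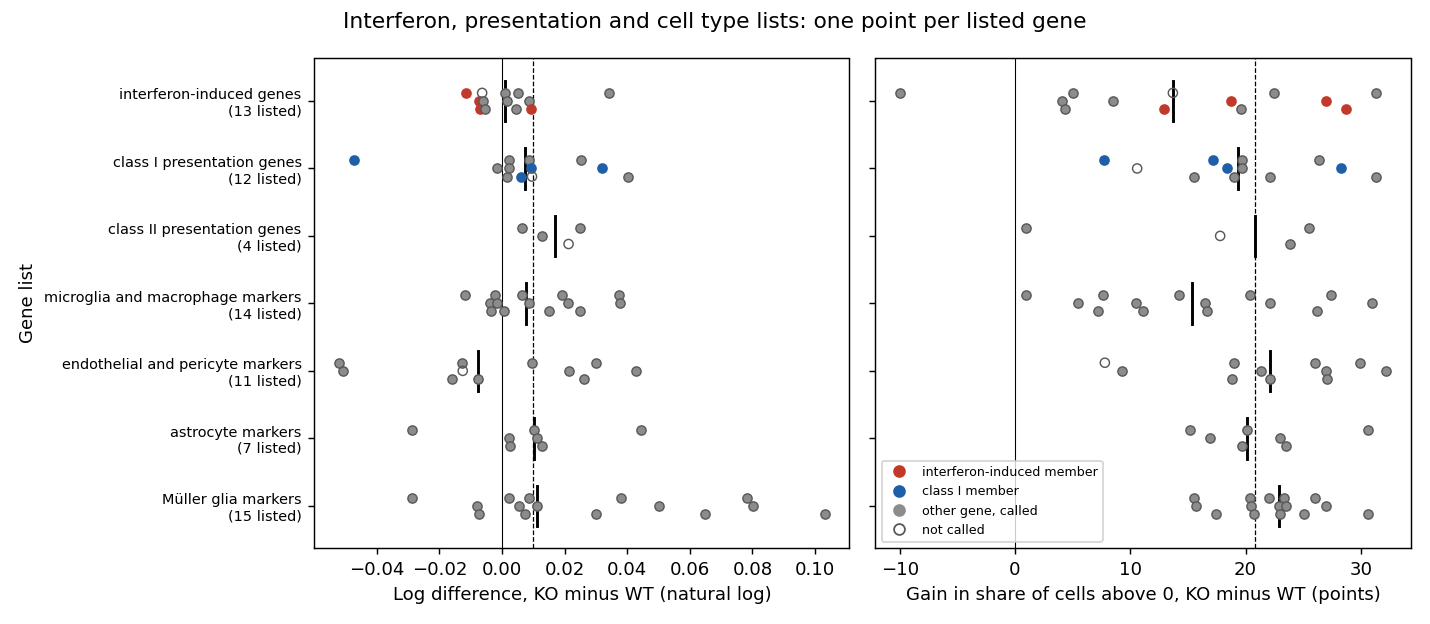
Log difference (left, natural log) and gain in the share of cells above 0 (right, percentage points), KO minus WT, with 1 point per listed gene in 7 gene lists and a bar at each list's median. Dashed lines are the medians of all 1802 genes. The interferon-induced list centres at 0.000926 and 13.7 points, with Ifit1 alone left of 0 in the right panel, and the class I list at 0.00729 and 19.35 points.

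Marker genes of cells that usually carry these transcripts went both ways in the same table, and their part in the values of the members was not tested. Of 18 microglia and macrophage markers 14 were listed, and the authors' deposited table called 9 higher and 5 lower, at a median of 0.00752, where 69.1% of all genes were called higher. They were above 0 in a median of 30.5% of WT and 42.6% of KO cells in the authors' deposited table. By log difference, Ly86 (-0.0119), C1qa (-0.00387) and C1qc (-0.00146) were lower and C1qb (0.0373), Ctss (0.0248) and Cd14 (0.0211) higher in the authors' deposited table. Read against the median gene, 6 were higher and 8 lower, and within quintiles of the WT share 8 were higher and 6 lower. Ly86, C1qa and C1qc were named after their values were seen. The defining markers Tmem119 and Trem2 were not listed. In the authors' deposited table, 11 of 17 endothelial and pericyte markers were listed, with 5 called in each direction, where 24.1% of all genes were called lower. Against the median gene 4 of the called markers were higher and 6 lower, and within quintiles of the WT share 5 and 5. The largest differences among these markers were Igfbp7 (-0.0522), Rgs5 (-0.0507), Acta2 (0.0428) and Kdr (0.0300). Kdr is also counted among the Müller glia markers. The listed endothelial and pericyte markers had WT shares from 17.5% to 61.0% and KO shares from 41.7% to 90.9% in the authors' deposited table.

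For astrocytes 7 of 13 markers were listed, and the authors' deposited table called 6 higher and 1 lower, where 69.1% of all genes were called higher and 24.1% lower. Gja1 (0.0444), Ndrg2 (0.0128) and Slc1a3 (0.0113) were higher and Aqp4 (-0.0288) lower. Müller glia, whose list shares Aqp4, Slc1a3 and Sox9 with that of astrocytes, had 12 of 15 listed markers called higher and 3 lower, led by Dbi (0.103), Vim (0.0801), Apoe (0.0783) and Dkk3 (0.0650) in the authors' deposited table. Against the median gene these counts became 4 higher and 3 lower for astrocytes and 8 and 7 for Müller glia, and within quintiles of the WT share 3 and 4, and 9 and 6. The 13 listed rod markers were all called lower, with a median of -0.140, the largest differences being those of Rp1 (-0.263), Gngt1 (-0.250), Pdc (-0.236) and Sag (-0.192) in the authors' deposited table. Lymphocyte and NK cell markers were listed in 0 of 17 cases, and neutrophil markers in 1 of 9, Cxcr2 (-0.00199). Cell types in a single pooled value cannot be told apart, so which cells carried the values of the 8 genes was not measured.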

How the data were processed

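Single-cell libraries of retina, 3 WT and 5 KO by their titles, were compared by the authors in 1 table without values per library. Cell Ranger, Seurat 3.1.4, DESeq2 and GRCm38 are named in the submitters' processing notes, without their roles. Per the file headers, the deposited table gives a log difference, taken as a natural log by the convention of that Seurat version, and the fraction of cells above 0 in each group, printed as percent. It also gives a raw and an adjusted p-value per gene, deposited without the test. The quotient of both p-values was 2000 in all 1554 rows where it could be formed, and the largest raw p was 0.00938, so the table appears filtered. Its cluster column reads KO throughout, so the first group was taken as KO.

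Counts of called genes (the authors' adjusted p under 0.05), medians and ranks were computed with pandas 2.3.3 under Python 3.11.15, and transcripts were aligned with Biopython 1.88. No test was run here. The planned fits per library had no values to use. The calculations were checked on made-up tables and sequences with known answers. The 8 genes and all gene lists were chosen with earlier results of these data known. Named besides the members are Abca1, up to 4 called genes of each list by absolute log difference, and the 2 genes nearest each member in shares. Some genes that this rule selects are not reported here.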

Additional observations from a re-analysis of the deposited data

How the results depend on the processing

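No paired analysis was possible because the deposited comparison carries no value per library, and leaving out a library could not be done for the same reason. A value was counted as moved where it changed by over 1.5 times. Ratios of odds, which are on another scale than gains in points, were counted as unchanged where they kept the direction of the gain. Alternatives were tried on the members' calls, medians and gains and on the calls of the interferon and class I lists. Of these, 24 changed nothing by those rules, 20 moved a value and 3 turned its sign.

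Reading directions against the median of all genes left 0 interferon-induced members called higher, and gave the class I members 1 higher and 3 lower. Against the median of the quintile of genes with a like WT share, the class I members again had 1 higher and 3 lower. For the wider lists, where all alternatives were chosen after seeing the data, the interferon-induced genes had 1 higher and 11 lower against all genes and 3 higher and 9 lower within quintiles. The class I genes had 3 higher and 8 lower on both readings. At an adjusted p under 1e-10, 0 class I members and 1 class I gene were called lower. Without the 8 members, 2 interferon-induced and 1 class I genes were called lower.

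The median log difference of the interferon-induced members became -0.00410 as a mean, -0.0172 against all genes and -0.0181 within quintiles. That of the class I members turned negative in all 3: -9.69e-06 as a mean, -0.00242 against all genes and -0.00468 within quintiles. Counting Ifit3 and Ifit3b as 1 gene, or leaving out the most extreme gene of a set, turned neither median. As ratios of odds, the gains were 2.69 and 2.28.

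Single genes changed sign as follows. Ifi27 became -0.000677 against all genes. B2m became -0.000816 against all genes, -0.00206 within quintiles and -0.00138 against genes within 5 points of its WT share, an alternative added after seeing the data. Psmb9 became -0.00403, -0.00730 and -0.0101 in the same order. Depth per library is unknown, and the log base is an inference: read as log2, every difference shrinks by one factor and keeps its sign.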

Other observations

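The drop of Ifit1 in the share of KO cells above 0 stood beside larger and smaller drops in other genes, all named after their values were seen. The largest of the 36 drops in the authors' deposited table was that of Cckbr, a cholecystokinin receptor gene (37.8% of WT and 20.2% of KO cells). Ctla2a, a protease inhibitor gene, was above 0 in 40.5% of WT and 25.9% of KO cells, and the chemokine gene Ccl9 in 38.6% and 29.6%, in the authors' deposited table. Their log differences, 0.00147, 0.00196 and 0.00190, were just above 0, as was that of Ifit1 (0.000926).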
